A study of Rattus norvegicus with 30 samples.

Results

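The comparison described here set cochleae exposed to ototoxic drugs against untreated cochleae of rats 21 days after exposure. It used 6 of the 30 samples of the series, 3 ototoxic and 3 control, chosen by their labels, and the other 6 samples of that day entered the fit for the spread. The animals were male Wistar rats aged 2 months, and the labels place 16 of 36 rats in an arm given vehicle and 20 in an arm treated for 5 days with N-acetylcysteine, a donor of cysteine, and the polyphenol resveratrol. After 2 days of that course a sponge was laid near the round window of 1 ear, carrying 200 mg/ml of kanamycin and 50 mg/ml of furosemide. Ototoxic samples are sponge ears of vehicle rats, and control samples are ears of the other side of vehicle rats, so a control animal also carried the drugs in its opposite ear. Antioxidant samples and antioxidant plus ototoxic samples are the same kinds of ear from rats given both antioxidants, with 3 samples each. No group is labelled as having a sponge without drugs, and drugs, sponge and surgery cannot be told apart. The labels do not say whether a control and an ototoxic sample come from 1 rat, and the p-values below measure the spread between these samples.

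Kanamycin is an aminoglycoside antibiotic, a class that enters the sensory hair cells of the inner ear and can kill them. Furosemide is a loop diuretic that acts on the stria vascularis, the tissue that keeps up the ion balance of the cochlear fluid, and given together with an aminoglycoside it increases the damage to hearing. Reactive oxygen species are held to take part in this damage. Superoxide dismutases convert superoxide to hydrogen peroxide, which catalase, glutathione peroxidases and peroxiredoxins break down, while NADPH oxidases produce superoxide. The assay panel was built around such genes.

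Transcripts were measured by real-time PCR of cDNA on a ready-made plate of oxidative stress assays, of which 84 wells, 5 of them with housekeeping labels, were analysed here. The threshold cycle, Ct, is the PCR cycle at which a well's signal passes a set level. It is an inverse log2 scale with a ceiling of 40, so a well that crosses 1 cycle earlier holds about 2 times the template. Expression below is minus Ct after subtraction of each sample's mean Ct over 74 target wells that were below 35 cycles in all 12 day 21 samples, and it is in log2 units. Plate wells are named by position because the gene labels could not be settled. Between day 21 samples raw Ct ranked the wells nearly alike (rank correlation 0.93 to 0.99), whereas the median between day 21 and day 3 samples was 0.27. Raw Ct and the authors' delta Ct had rank correlations of at most 0.05 under the same gene label and of at least 0.98 when the raw wells were put in order of their accessions. Both labels are therefore given at first mention, the raw table's first, and neither is taken as the identity of the gene. No marker of hair cells or supporting cells was among the listed genes, so the labelled tissue was not checked against its own markers.

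No difference in the amount of template was shown between control and ototoxic ears. Mean raw Ct over the 74 wells was 25.61, 25.55 and 25.30 cycles in the control samples and 25.37, 25.76 and 26.06 cycles in the ototoxic samples. The groups overlapped, with means of 25.49 ± 0.17 (SD, n = 3) and 25.73 ± 0.35 (SD, n = 3), and the difference of 0.24 cycles had a p of 0.4 in an exact two-sided permutation test, whose smallest possible p for 3 against 3 samples is 0.1. Between 2 and 3 wells of each of these 6 samples stood at the ceiling of 40 cycles. In the antioxidant arm, mean raw Ct was 25.35 ± 0.21 (SD, n = 3) without the drugs and 26.03 ± 0.57 (SD, n = 3) with them. That gap was not tested.

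Well G01 (raw label Sod2, processed label Noxa1) was 7.89-fold lower in ototoxic than in control ears, and it was the 1 well of 79 tested that passed the threshold, a background of 1.27%. As background, Sod2 is the superoxide dismutase of mitochondria and Noxa1 an activating subunit of an NADPH oxidase. Raw Ct of G01 was 25.80, 25.86 and 26.33 cycles in the control samples and 28.65, 29.64 and 29.37 cycles in the ototoxic samples. Each ototoxic sample thus needed more cycles than any control sample, before any reference was subtracted. Relative to the panel mean, expression was -0.19, -0.30 and -1.03 in control ears and -3.29, -3.88 and -3.31 in ototoxic ears. The lowest control value lay above the highest ototoxic value by several times the spread inside either group. Group means were -0.51 ± 0.46 (SD, n = 3) and -3.49 ± 0.34 (SD, n = 3), and expression fell by 2.98 log2 units (SE 0.43, 95% interval -3.95 to -2.01, limma adjusted p = 0.00367). As a fold this interval runs from 4.03 to 15.4. In whole-cochlea RNA, fewer cells of a type and less RNA per cell cannot be told apart.

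**Figure D1:**
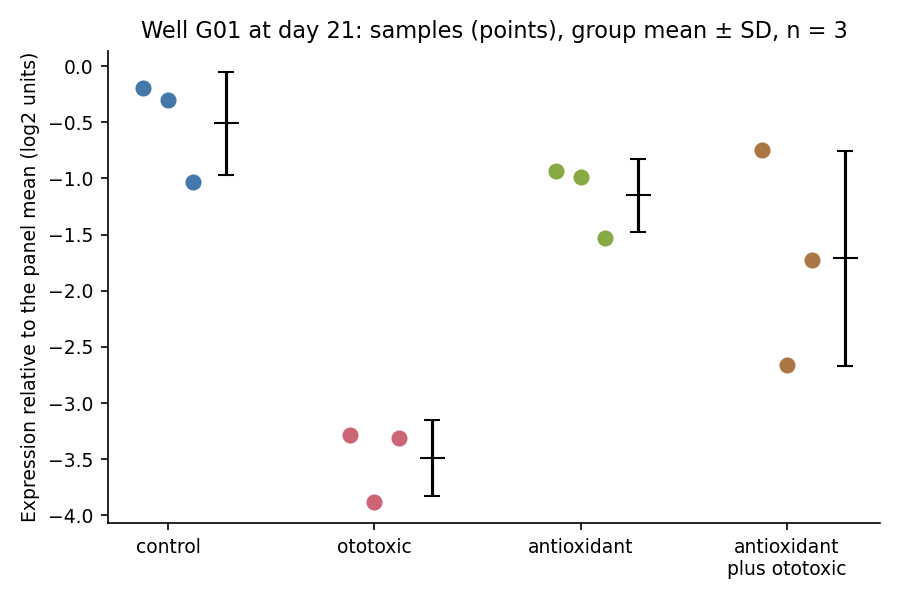
Expression of well G01 relative to the panel mean, in log2 units, in each of the 12 day 21 samples, with points for samples and black bars for the group mean ± SD (n = 3). The 3 ototoxic samples sit between -3.88 and -3.29 and the 3 control samples between -1.03 and -0.19.

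The call on G01 was lost under one alternative reference, the mean of all 5 wells with housekeeping labels, where the difference was -2.66 (limma adjusted p = 0.109). Of those wells H01 stood at 40 cycles in 5 and H04 in 11 of the 12 samples, and the mean of the other 3 gave -3.32 (limma adjusted p = 0.00738).

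The same 2 gene labels sit on other wells in the opposite table, and those wells did not pass the threshold. Well D08 (Noxa1 and Ccs), named because it carries the raw label Noxa1, differed by 0.74 (SE 0.58, limma adjusted p = 0.717). Well E02 (Park7 and Sod2), which carries the processed label Sod2, differed by 0.17 (SE 0.17, limma adjusted p = 0.759). Under either table, then, 1 of the 2 labels goes with the low well and the other with a well whose interval includes 0. Which gene G01 measures was not settled.

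Away from G01 the ototoxic and control ears differed little. Over the 79 wells the median difference was 0.07 log2 units and the median absolute difference 0.21, with 47 wells above 0 and 32 below. limma gave 3 wells an unadjusted p under 0.05, or 3.80% of those tested, and the smallest adjusted p after G01 was 0.449. The 95% interval of 56 wells (70.9%) lay wholly within 1 log2 unit either way, so for these a change of more than 2-fold falls outside the interval. Intervals reached a median of 0.46 log2 units to either side, and over 1 unit in 14 wells. Precision fell with the level of the assay. The median residual SD was 0.23 log2 units over the 34 wells with a mean under 25 cycles, 0.26 over the 38 wells from 25 to 30 cycles, and 1.13 over the 7 wells over 30 cycles. The median difference relative to the panel mean was 0.18, -0.04 and -0.30 in these bands. In the 7 wells over 30 cycles the intervals reached a median of 1.86 log2 units to either side. No trend with the level of the assay is read from these medians.

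**Figure D2:**
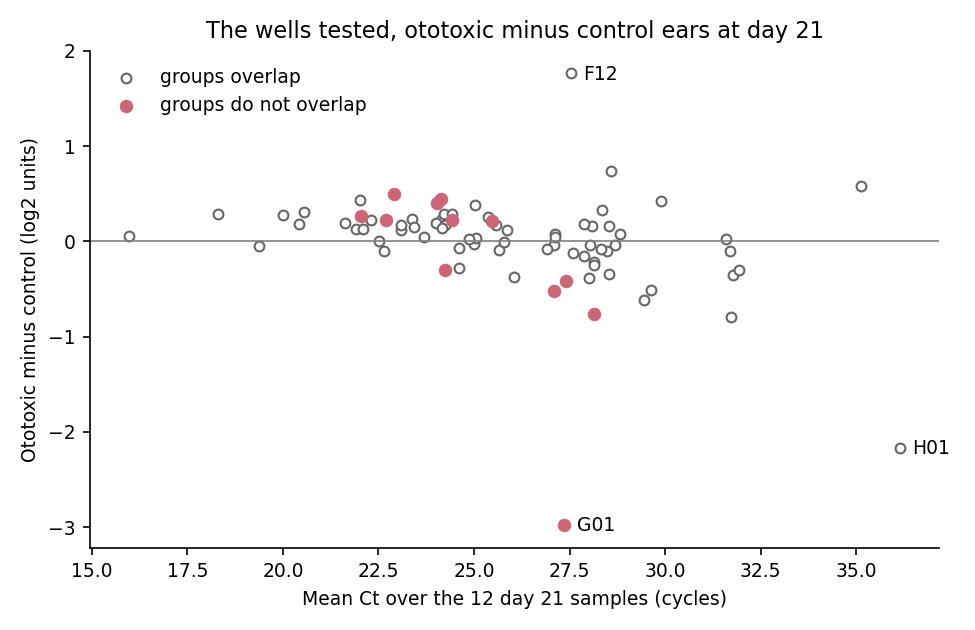
Ototoxic minus control expression (log2 units) of the 79 wells tested against their mean Ct over the 12 day 21 samples (cycles), with filled points for wells whose 3 ototoxic and 3 control values do not overlap. G01 lies at -2.98, while F12 at 1.76 and H01 at -2.17 have overlapping groups.

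The next wells by p were G11 (Xpa and Ercc2), A08 (Xirp1, no counterpart in the processed table) and B05 (Ercc2 and Gpx5), apart from 1 well that is not reported here. They did not pass the threshold and are given as values. Xpa and Ercc2 both name factors of nucleotide excision repair, so both tables put a DNA repair label on G11. Its expression was -2.01, -2.18 and -2.46 in control ears and -2.95, -2.95 and -3.05 in ototoxic ears. The 3 ototoxic values were close together and below each control value. The difference was -0.77 (SE 0.25, 95% interval -1.32 to -0.22, unadjusted p = 0.0114, limma adjusted p = 0.449).

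Well A08 read 1.22, 1.29 and 1.17 in control ears and 1.70, 1.85 and 1.46 in ototoxic ears, a difference of 0.44 (SE 0.19, limma adjusted p = 0.575). Xirp1 names an actin-binding protein of striated muscle. Well B05 read 1.42, 1.35 and 1.46 in control ears and 1.86, 1.70 and 1.88 in ototoxic ears, a difference of 0.40 (SE 0.19, limma adjusted p = 0.575). Gpx5 names a glutathione peroxidase best known from the epididymis. Neither well had overlapping groups, and each difference was a fraction of that of G01.

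The remaining wells among the 20 with the smallest p had differences between -0.61 and 0.44. Lower means in ototoxic ears were found in C01 (Gpx4 and Noxo1) at -0.41, E05 (Prdx2 and Nqo1) at -0.61 and C03 (Gpx6 and Vim) at -0.30. Higher means were found in F08 (Slc38a1 and Txnip) at 0.22, B04 (Epx and Gpx1) at 0.29, B11 (Gpx2, no counterpart) at 0.27, D11 (Nudt1 and Sod1) at 0.27, E08 (Prdx5 and Ift172) at 0.23, F02 (Rag2 and Xirp1) at 0.26, A07 (Ccs and Rag2) at 0.24, A10 (Duox2 and Prdx4) at 0.23 and F04 (Serpinb1b, no counterpart) at 0.20. The other members of the 20 were the housekeeping wells H02, H03 and H05, described below. limma adjusted p ran from 0.575 to 0.717 over these wells. The direction of these 9 higher wells depended on the reference. All 9 were above 0 against the panel median, the wells below 30 cycles and all 5 housekeeping wells (0.52 to 0.61 in the last), 4 of 9 were with no reference, and 0 of 9 were against the 3 housekeeping wells below 35 cycles (-0.15 to -0.06).

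**Figure D3:**
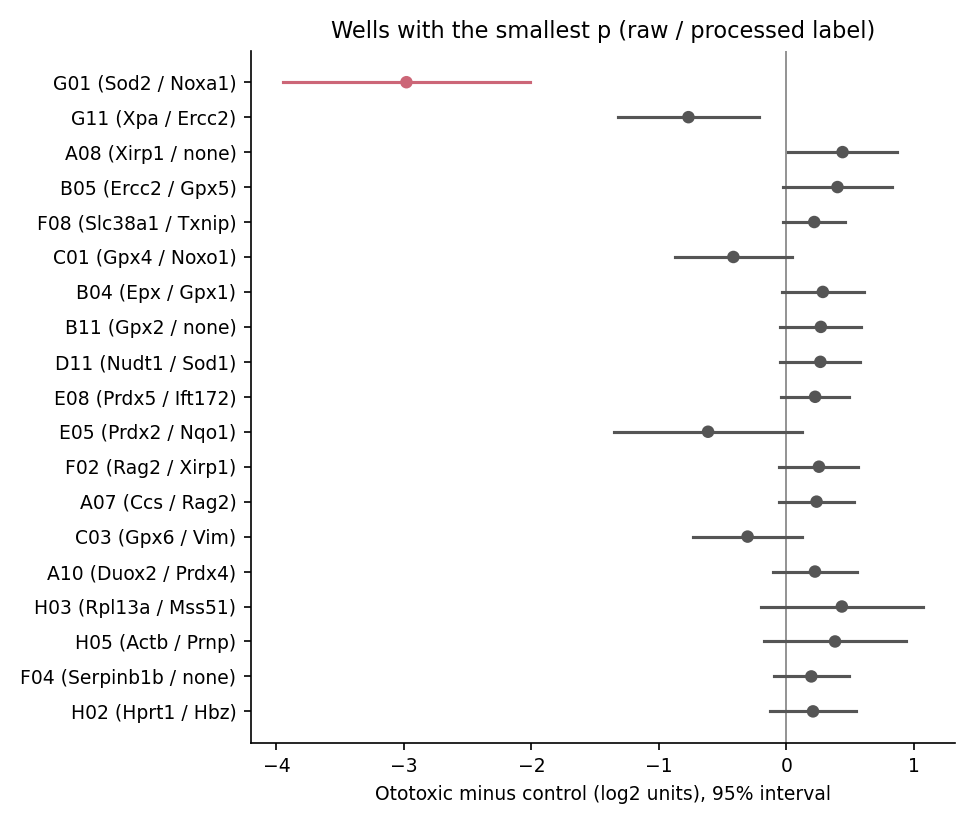
Ototoxic minus control expression (log2 units) of 19 of the 20 wells with the smallest p, with points for the difference and bars for the 95% interval, and with the raw and processed labels beside each well. The interval of G01, from -3.95 to -2.01, lies apart from those of the other 18 wells.

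Ototoxic and control values did not overlap in 12 of 79 wells (15.2%), 7 of them higher (8.86%) and 5 lower (6.33%) in ototoxic ears. Random labels on 3 against 3 samples would separate a well completely, in either direction, with a probability of 0.1. The lower wells reported here were G01, G11, C01 and C03. The higher wells were A08, B05, D11, E08, F08, A11 (Cygb and Sod3) and H02. In A11, named after its values were seen, ototoxic ears read 2.65, 3.62 and 2.85 against 2.62, 2.43 and 2.57 in control ears, so that ototoxic replicate 2 carried most of the difference of 0.50 (SE 0.36). The split into higher and lower wells rested on the reference. With the panel median, which shifted the median of all wells by -0.11, it was 0 higher and 7 lower. With the 3 housekeeping wells below 35 cycles, which shifted it by -0.34, it was 0 higher and 15 lower. With all 5 housekeeping wells, a shift of 0.32, it was 2 higher and 1 lower, and with raw Ct and no reference, a shift of -0.24, it was 0 higher and 4 lower. G01 was without overlap and lower under each of these 5 references and under the mean of the 63 wells below 30 cycles. Well G11 was without overlap under each except the mean of all 5 housekeeping wells.

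**Figure D4:**
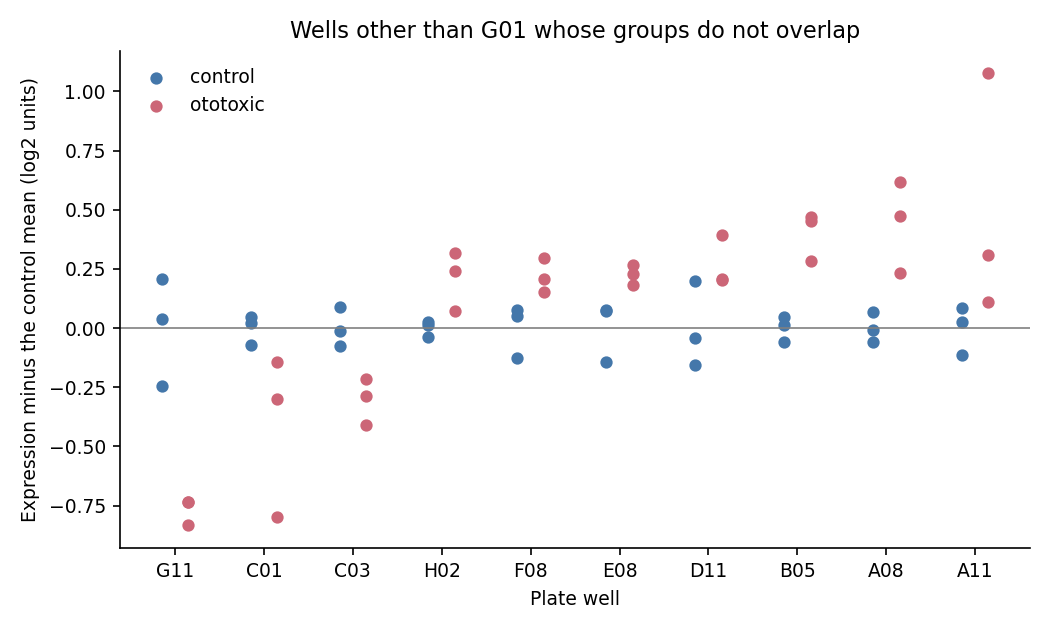
Expression minus the control mean (log2 units) in the 3 control and 3 ototoxic samples, for 10 of the 11 wells other than G01 whose groups do not overlap, in order of their difference. The differences run from -0.77 in G11 to 0.50 in A11, all relative to the panel mean; against the panel median 0 wells were higher without overlap.

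The wells with housekeeping labels were not steady as a set. Of the 3 below 35 cycles throughout, H02 (Hprt1 and Hbz) differed by 0.21 (SE 0.15), H03 (Rpl13a and Mss51) by 0.44 (SE 0.28) and H05 (Actb and Prnp) by 0.38 (SE 0.25), with limma adjusted p from 0.686 to 0.717. Well H01 (Rplp1 and Aass) read 33.25, 33.90 and 32.68 cycles in control ears and 40, 32.99 and 34.09 cycles in ototoxic ears, and its difference of -2.17 (SE 2.35) rested on ototoxic replicate 1 at the ceiling and was 0.16 without it. Rplp1 names a ribosomal protein that most cells make in large amounts, and a well at the ceiling goes against that label. The wells with the smallest difference and spread over the 6 samples were E03 (Ppp1r15b and Gpx2) at -0.01 (SE 0.15), E01 (Nxn and Gpx3) at 0.03 (SE 0.15) and C06 (Gstk1, no counterpart) at -0.05 (SE 0.16).

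Some wells gave no usable difference. Of the 5 wells that were not below 35 cycles in every sample of any group, those reported here were B12 (Gpx3 and Ppp1r15b), E12 (Ptgs1 and Nos2), G09 (Ucp3 and Mpo) and H04 (Ldha and Ngb). H04 stood at 40 cycles in 5 of these 6 samples, with 37.83 cycles in control replicate 1. E12 read 36.82, 30.74 and 40 cycles in control ears and 30.83, 40 and 37.42 cycles in ototoxic ears, a range inside each group far wider than any difference between them. G09 likewise had 1 sample of each group at the ceiling and the others between 33.22 and 34.57 cycles, and B12 had 1 sample of each at the ceiling. Well F12 (Sod1 and Nox4), named after its values were seen, was tested but read 27.68, 29.34 and 31.16 cycles in control ears and 30.71, 23.42 and 29.48 cycles in ototoxic ears, and its difference of 1.76 had an SE of 2.25 and was -0.48 without ototoxic replicate 2.

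Grouped by label, no list had a well called other than G01, and most lists held wells on both sides of 0. A list by one table shared at most 1 well with the same list by the other. Glutathione peroxidases, which reduce peroxides with glutathione, had 0 of 7 tested wells called under the raw labels (median difference 0.05) and 0 of 8 under the processed labels (median 0.02). Peroxiredoxins had 0 of 6 called under each. Under the raw labels 3 of the 6 wells were above 0 (median 0.07, from -0.61 to 0.28), and under the processed labels 6 of 6 (median 0.23, from 0.12 to 0.33), a count that was 2 of 6 with no reference and 0 of 6 against the 3 housekeeping wells below 35 cycles. These stand beside 47 of 79 wells above 0, a median of 0.07 over all wells, and 1.27% called; with no reference 17 of the 79 and against those 3 wells 9 of the 79 were above 0. Superoxide dismutases with their copper chaperone had 1 of 4 called under the raw labels, G01 itself (median 0.14, from -2.98 to 1.76), and 0 of 4 under the processed labels (median 0.38, from 0.17 to 0.74), where 4 of 4 were above 0, 3 of 4 with no reference and 2 of 4 against the 3 housekeeping wells. NADPH oxidase subunits and dual oxidases had 0 of 6 called under the raw labels (median 0.18) and 1 of 6 under the processed labels, again G01 (median -0.20). Thioredoxin and glutathione reduction had 0 of 6 called under each, with medians of -0.06 and 0.09. Haem peroxidases and catalase had 0 of 6 and 0 of 5 called, with medians of -0.25 and 0.04. DNA repair had 0 of 5 called under each, with medians of 0.27 and -0.35, and both lists hold G11.

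Labels of proteins from blood, muscle and granulocytes had no call either. The list of blood and muscle proteins, in which the panel has Hbz, Mb, Tmod1 and Xirp1, had 0 of 4 wells called under each table, with medians of -0.11 and 0.05, and differences from -0.51 to 0.44. Mpo and Epx, peroxidases of granulocytes, and Lpo, a peroxidase of secretions, together had 0 of 3 and 0 of 2 called, with medians of -0.15 and 0.05. With the labels unsettled, these counts describe wells and not cells.

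In rats given the antioxidants, ears with the ototoxic drugs had a less marked difference in G01. Raw Ct of G01 was 26.35, 26.10 and 27.04 cycles in antioxidant ears and 27.38, 28.15 and 27.69 cycles in antioxidant plus ototoxic ears. These raw values did not overlap. Mean raw Ct over the 74 wells was also higher with the drugs in this arm, at 26.03 against 25.35 cycles. Relative to the panel mean, expression of G01 was -0.94, -0.99 and -1.53 in antioxidant ears and -0.75, -2.66 and -1.73 in antioxidant plus ototoxic ears. On this scale the groups overlapped, since replicate 1 with the drugs was above each sample without them. Means were -1.15 ± 0.33 (SD, n = 3) and -1.71 ± 0.95 (SD, n = 3), a difference of -0.56 (SE 0.43, 95% interval -1.53 to 0.41, limma adjusted p = 0.82). Each antioxidant plus ototoxic sample lay above each ototoxic sample of the vehicle arm, by 1.78 on average (SE 0.43, limma adjusted p = 0.174). The difference between the arms was 2.42 (SE 0.61, 95% interval 1.05 to 3.79, unadjusted p = 0.00282), with a limma adjusted p of 0.149, so it did not pass the threshold. Of 27 alternatives 1 had a call for this difference, G01, without antioxidant plus ototoxic replicate 2, the lowest of its group. That setting was added after seeing the data. Part of the estimate for the difference between the arms came from ears without the drugs. There antioxidant minus control was -0.64 in G01 (SE 0.43, limma adjusted p = 0.55), which did not pass the threshold.

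Well G11 had the other low p for a difference between the arms, 1.32 (SE 0.35, unadjusted p = 0.00376, limma adjusted p = 0.149). It read -2.51, -2.50 and -3.03 in antioxidant ears and -2.16, -1.61 and -2.62 in antioxidant plus ototoxic ears, a difference of 0.55 (SE 0.25) where vehicle ears had -0.77. Mean raw Ct of G11 was 28.03 cycles in antioxidant ears and 28.16 cycles in antioxidant plus ototoxic ears. The rise with the drugs, and so the opposite direction of the arms, was thus absent in raw Ct. Of the 79 wells, limma called 0 for the difference between the arms, with 3 at an unadjusted p under 0.05 (3.80%), the third being A08 at -0.66 (SE 0.27). In the antioxidant arm alone the groups did not overlap in 6 wells (7.59%), and 1 well was called (1.27%), B11, at 5.23, 5.37 and 5.41 without and 5.91, 6.24 and 5.98 with the drugs. That difference of 0.71 (SE 0.14, limma adjusted p = 0.0475) was past the threshold by a narrow margin and was kept under 5 of the 20 alternatives that hold this well, being lost when any 1 of the 6 samples of that arm was left out. Mean raw Ct of B11 was 20.01 cycles in antioxidant ears and 19.98 cycles in antioxidant plus ototoxic ears, and the samples overlapped. The rise of B11 with the drugs was thus almost absent in raw Ct. Relative to the panel mean, the arms differed by 0.43 for B11 (SE 0.20, limma adjusted p = 0.857).

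**Figure D5:**
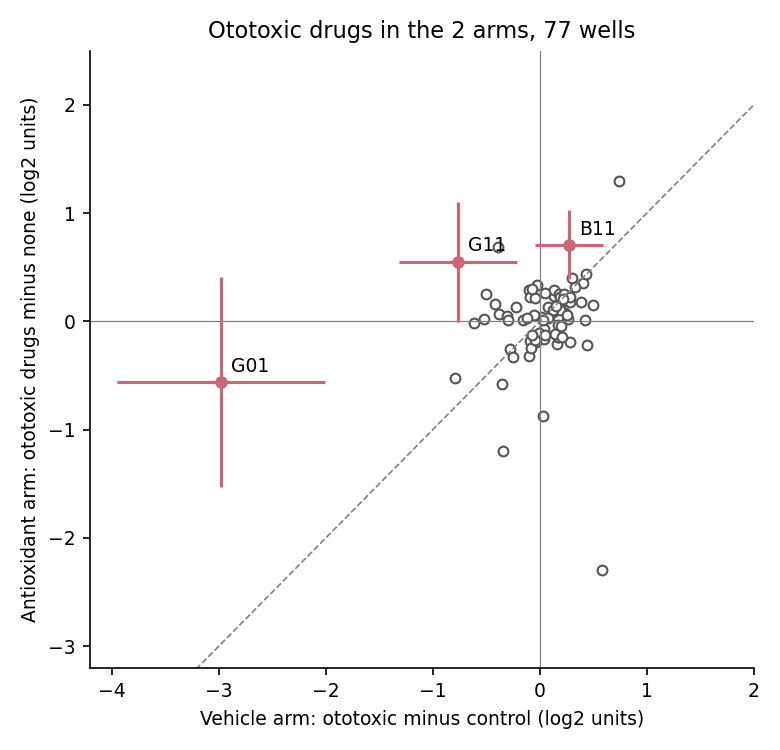
Difference with the ototoxic drugs in the vehicle arm (x axis) and in the antioxidant arm (y axis), in log2 units, for 77 wells (H01 and F12, with the widest intervals, are left out); bars are 95% intervals for 3 named wells and the dashed line marks equal differences. G01 lies at -2.98 in the vehicle arm and -0.56 in the antioxidant arm, B11 at 0.27 and 0.71, all relative to the panel mean.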

How the data were processed

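The authors deposited raw threshold cycles for each well, with no normalization, and delta Ct values on the log2 scale whose reference is not given in the sources used here. Per the labels' protocols, RNA came from homogenised cochleae and plates were run on an Applied Biosystems real-time PCR system. The raw day 21 columns were used, and 2 raw columns that match no labelled sample were not. The remaining deposited table, of differences between days, was not used. Housekeeping symbols were looked up by accession in a RefSeq gene table, which held 77 of the 84 accessions.

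Wells below 35 cycles in every sample of at least 1 day 21 group were tested (79 of 84). limma 3.58.1 in R 4.3.3 fitted 4 group means to 12 samples (8 residual degrees of freedom), and p-values were adjusted by the Benjamini-Hochberg method over the 79 wells within each comparison at 0.05. The fit was tested on simulated data. There is no sequencing depth here, and precision depends on how many samples were run and on the Ct of each assay. The series' design text describes several animals per group. Named wells are those past the threshold, the 20 with the smallest p, the housekeeping labels, wells called in the other arm, the 3 steadiest and those at the ceiling, with exceptions said to be so, and 2 of them are not reported here. Members, lists and rules were chosen with earlier results of these data known. Alternatives covered the reference, Ct filter, deposited values, moderation, replicate numbers and left-out samples.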

Additional observations from a re-analysis of the deposited data

How the results depend on the processing

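Under 28 alternatives the difference of G01 ran from -3.32 to -2.66 log2 units and its limma adjusted p from 8.84e-05 to 0.109, and 27 of the 28 called it. The number of wells called for ototoxic against control ears was 1, again G01, except with the mean of all 5 wells with housekeeping labels, which called 0. Leaving out each of the 6 samples gave G01 from -3.24 to -2.79 (limma adjusted p 0.00689 to 0.0265) and 1 call each. Whether equally numbered ears come from 1 rat is not stated, and the values did not show a pairing in each pair: deviations of equally numbered samples correlated at -0.33, -0.04 and 0.44 in the vehicle arm and at -0.03, 0.27 and 0.26 in the antioxidant arm, where 1 of 3 and 2 of 3 samples correlated best with their own number. With the replicate number within arm as a block, G01 had a limma adjusted p of 0.03, and with the number over all groups 0.00374, with 1 call each. In the antioxidant arm the 1 call, B11, was kept under 5 of the 20 alternatives that hold this well (limma adjusted p 0.0347 to 0.966): wells below 35 cycles in all samples, wells below 30 cycles, no wells over 35 cycles in the 6 samples, an intensity trend and robust moderation. It became 0 with either housekeeping reference, the panel median, the reference of wells below 30 cycles, no reference, no Ct filter, values over 35 cycles set to 35, either replicate block, and each sample left out (0 to 0). The deposited delta Ct also called 0 wells in that arm, but holds no row for B11 and so is no test of it. For the difference between the arms the count ran from 0 to 1 over the samples left out, the 1 being without antioxidant plus ototoxic replicate 2, and was 0 under the other 26 of 27 alternatives. Mean raw Ct differed by 0.08 to 0.43 cycles over the 6 samples left out. Over the 27 other named wells none of 749 alternative values was called, and 36, in 17 wells, had the opposite sign. Against the 3 housekeeping wells below 35 cycles these were F08 -0.12, B04 -0.056, B11 -0.071, D11 -0.075, E08 -0.12, F02 -0.086, A07 -0.11, A10 -0.12, F04 -0.15, H02 -0.13, E01 -0.31 and E02 -0.18, and against all 5 they were C03 0.021, E03 0.32 and C06 0.27. With no reference they were F08 -0.025, E08 -0.018, A07 -0.0066, A10 -0.019, F04 -0.048, H02 -0.034, E01 -0.22 and E02 -0.077, and with the panel median E01 -0.082. The deposited delta Ct gave E08 -0.18, F02 -0.074, H02 -0.085 and E01 -0.18. With samples left out, E03 ran from -0.056 to 0.074, E01 from -0.057 to 0.15, C06 from -0.11 to 0.0053, H01 from -3.54 to 0.16 and F12 from -0.48 to 3.36. The causes of these changes were not tested. In these 17 wells the direction of ototoxic minus control thus depends on the setting. In the other 10 named wells, G11 among them, the direction of that comparison did not change under the alternatives run. Leaving out antioxidant-arm samples, the reference of 3 housekeeping wells, the removal of wells over 35 cycles, most settings of the antioxidant arm and of the difference between the arms, and wells A11, D08, E02 and F12, were added after seeing the data.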
